A study of Mus musculus with 4 samples.

Results

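The genes of cholesterol and fatty acid synthesis were described in mesenchymal stem cells (MSCs) of mice with B cell acute lymphoblastic leukemia (B-ALL) and of control mice. The set holds 37 genes, picked by symbol from the expression table and required to reach a value of 1 or more in 2 or more of the 4 libraries. All 37 were in the table of 17457 genes and all 37 passed, among 11056 genes that passed and were tested. They were placed in 5 groups: 5 regulators of the SREBP transcription factors, 17 enzymes from acetyl-CoA to cholesterol, 9 enzymes of fatty acid synthesis, 5 genes of sterol sensing and efflux, and the sterol carrier gene *Stard4*. The unit is FPKM, fragments scaled to the length of the transcript and to the size of the library, so that levels of different genes can be compared within a library. Control MSCs (2 samples) came from female C57BL/6J mice that had received PBS, and leukemia-associated MSCs (L-MSCs, 2 samples) came from female C57BL/6J mice given 1000 BCR-ABL1+ B-ALL cells of the line PER-M60 by tail vein. The mice were 7 to 9 weeks old at injection, neither group carried an engineered allele in its own cells, and the leukemia came from 1 cell line with a retroviral BCR-ABL1 gene. Each sample pooled the cells of 4 to 7 mice, and leukemic mice were taken once signs of disease appeared. The sort took CD45-, TER119-, CD31-, Sca-1+ and PDGFRα+ cells from long bones that were flushed of marrow, which was discarded, and then digested.

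Cells make cholesterol from acetyl-CoA by way of HMG-CoA, mevalonate, farnesyl diphosphate, squalene and lanosterol. When membrane cholesterol is low, the escort protein SCAP carries the SREBP precursors from the endoplasmic reticulum to the Golgi, where they are cut and set free as transcription factors. SREBP-2 mainly drives the genes of cholesterol synthesis and SREBP-1 those of fatty acid synthesis, and INSIG proteins hold SCAP back when sterols are plentiful. Liver X receptors (LXRs) are nuclear receptors that bind oxysterols and induce genes that export cholesterol, so that synthesis and efflux are usually regulated in opposite directions.

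The sums of FPKM were 559602 to 588926 per library, and 10560 to 10976 genes had an FPKM of at least 1. The values used here come without read counts, so that the depth is unknown and no counting interval was computed. The antigens of the sort were expressed in every library, with an FPKM of at least 1056 for *Ly6a* (Sca-1) and at least 66.8 for *Pdgfra*, and *Ptprc* (CD45) and *Pecam1* (CD31) were below 1 in all 4. Of 8 stromal markers, 3 were called (37.5%, against 5.08% of all genes). *Lepr* (33.6 and 35.5 against 77.3 and 105) and *Cxcl12* (261 and 258 against 889 and 547) were higher in L-MSCs and *Thy1* (23.6 and 40.1 against 9.07 and 15.9) was lower. The other 5 were not called, with log2 fold changes from -0.06 for *Prrx1* to 0.35 for *Ly6a*, and they included *Pdgfra*, *Pdgfrb* and *Dcn*. The part of these markers in the results on the members was not tested. The libraries were scaled by the median of ratios and compared on log2(FPKM + 1) with limma, and a gene was called where its p, adjusted over all genes by Benjamini-Hochberg, did not exceed 0.05 and its log2 fold change was 1 or more in size. Over all genes, 562 were called (5.08%), of which 269 were higher in L-MSCs (2.43%) and 293 lower (2.65%), and without scaling the split was 301 and 194. Of the 37 members, 7 were called (18.9%), 6 of them lower and 1 higher. With 2 samples in each group, an exact permutation test of a single gene cannot go below 0.333, so that each call rests on the spread that limma pools over genes. With no filter on low FPKM, limma called 0 genes and 2324 had a p of 0.05 or less before adjustment, so that the calls depend on that filter.

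Of the 17 enzymes of cholesterol synthesis, 6 were called lower in L-MSCs (35.3%, against 2.65% of all genes tested) and 0 higher, and these were *Mvd*, *Idi1*, *Fdps*, *Sqle*, *Cyp51* and *Msmo1*. The median log2 fold change of the 17 genes was -0.88, where that of all genes tested was -0.01, and 16 of 17 had a negative value, where 50.7% of all genes did. After scaling, control and L-MSC values stood apart without overlap for 12 of 17, all of them lower in L-MSCs, a pattern that 27.2% of all genes showed. The 17 genes are not independent replicates, and the counts describe these 4 libraries. The members were also chosen with earlier results of these data known, so that the shares are no test of the set.

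**Figure D1:**
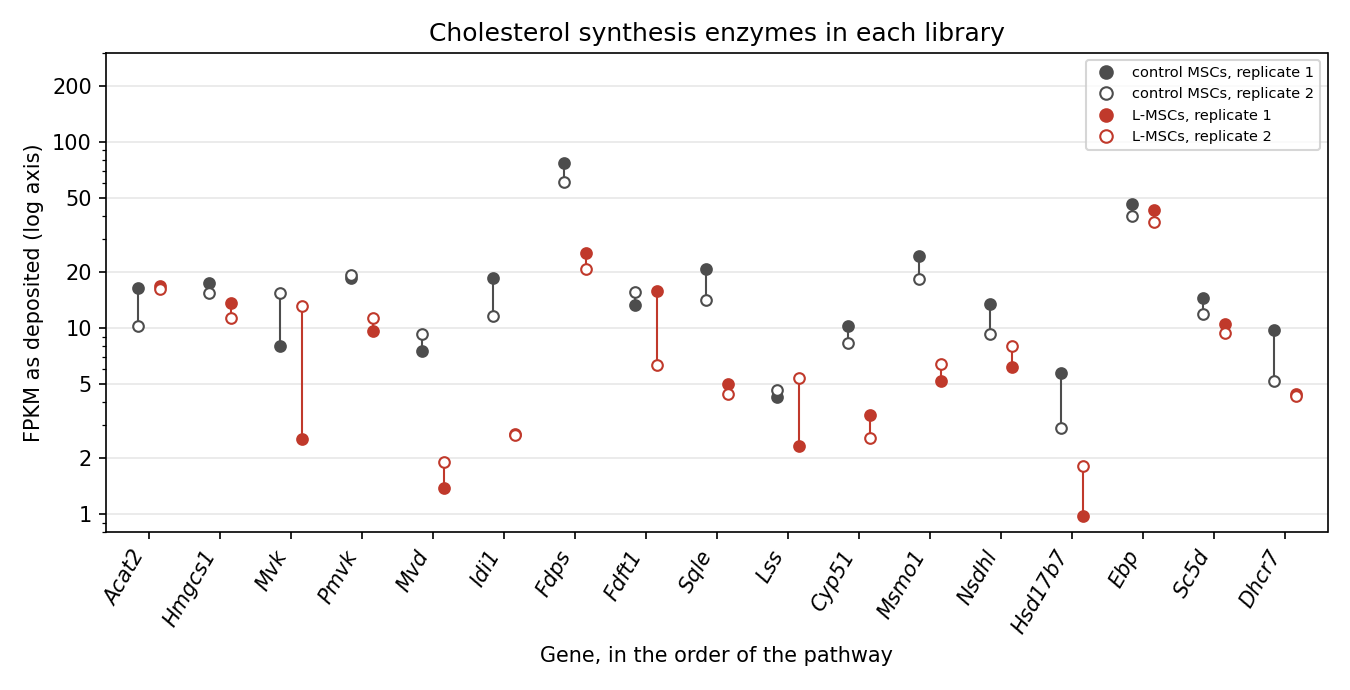
FPKM as deposited (log axis) of the 17 cholesterol synthesis enzymes, in the order of the pathway, in control MSCs (grey) and L-MSCs (red), with replicate 1 filled and replicate 2 open. A line joins the replicates of a group, and for *Idi1*, *Mvd* and *Sqle* the L-MSC points lie far below the control points, whereas for *Mvk*, *Fdft1* and *Lss* the L-MSC replicates lie far apart.

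Neither of the genes at the entry to the pathway passed the test. *Acat2*, which joins acetyl-CoA units in the cytosol, had an FPKM of 16.4 and 10.2 in control MSCs and 16.7 and 16.2 in L-MSCs. *Hmgcs1*, the HMG-CoA synthase of the cytosol, had 17.5 and 15.4 in control MSCs and 13.7 and 11.3 in L-MSCs. The *Acat2* values overlapped and those of *Hmgcs1* did not (log2 fold changes of 0.23 and -0.47, adjusted p = 0.707 and 0.330 from limma).

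The steps from mevalonate to farnesyl diphosphate held 3 of the 6 called genes. *Idi1*, which isomerizes isopentenyl diphosphate, spans 8885606 to 8892396 of chromosome 13 (GRCm38). Its FPKM was 18.6 and 11.6 in control MSCs and 2.70 and 2.68 in L-MSCs and the L-MSC replicates were nearly the same, well below the lower control library. The mean was 5.63 times as high in control MSCs, and the log2 fold change was -2.18 (standard error 0.32, adjusted p = 0.00546 from limma), which ranked 32 from the lowest among all genes tested. *Mvd*, the decarboxylase that makes isopentenyl diphosphate, lies on chromosome 8 from 122433596 to 122443422. Its FPKM was 7.53 and 9.27 in control MSCs and 1.38 and 1.91 in L-MSCs, and its log2 fold change was -1.91 (standard error 0.31, adjusted p = 0.00927 from limma). *Fdps*, the farnesyl diphosphate synthase, lies on chromosome 3 from 89093588 to 89101967 and was the most abundant of the 17 enzymes in control MSCs. Its FPKM was 77.0 and 60.6 in control MSCs and 25.4 and 20.8 in L-MSCs, and its log2 fold change was -1.63 (standard error 0.24, adjusted p = 0.00546 from limma). The groups stood clearly apart for all 3 of these genes. The kinase gene *Pmvk* also did not overlap, with 18.5 and 19.3 against 9.64 and 11.3, but missed both thresholds (log2 fold change -0.90, adjusted p = 0.0663). *Mvk*, the mevalonate kinase, had 8.04 and 15.4 in control MSCs and 2.53 and 13.1 in L-MSCs. Only L-MSC replicate 1 was low for *Mvk*, and its log2 fold change of -0.88 (adjusted p = 0.401) became 0.09 without that library and -1.85 (adjusted p = 0.00517) without L-MSC replicate 2.

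Of the genes that make squalene and lanosterol, *Sqle* was called. *Sqle*, the squalene epoxidase and a rate-limiting step of the later pathway, lies on chromosome 15 from 59315092 to 59331193. Its FPKM was 20.9 and 14.1 in control MSCs and 4.99 and 4.44 in L-MSCs. Every L-MSC value was below every control value, and the log2 fold change was -1.76 (standard error 0.29, adjusted p = 0.00968 from limma). *Fdft1*, the squalene synthase, had 13.3 and 15.6 against 15.8 and 6.33, and *Lss*, the lanosterol synthase, had 4.27 and 4.68 against 2.32 and 5.42. For both of them 1 L-MSC library was low and the other was as high as the controls, it was not the same library, and neither gene passed the test (adjusted p = 0.435 and 0.667). The annotated span of *Fdft1* overlaps that of *Ctsb*, and whether the reads were counted by strand is not given in the sources used here.

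Of the 7 genes from lanosterol to cholesterol, 2 were called lower (28.6%, against 2.65% of all genes) and 5 were not called. *Cyp51*, the lanosterol demethylase, lies on chromosome 5 from 4080674 to 4104697. Its FPKM was 10.3 and 8.34 in control MSCs and 3.42 and 2.56 in L-MSCs, and its log2 fold change was -1.46 (standard error 0.31, adjusted p = 0.0253 from limma). *Msmo1*, the sterol C4-methyl oxidase, lies on chromosome 8 from 64718123 to 64733578. Its FPKM was 24.3 and 18.4 in control MSCs and 5.20 and 6.41 in L-MSCs, and its log2 fold change was -1.80 (standard error 0.27, adjusted p = 0.00673 from limma). Both genes were lower in each L-MSC library than in either control library. *Hsd17b7*, a sterol ketoreductase, had 5.72 and 2.89 against 0.98 and 1.82 and a log2 fold change of -1.19, which did not pass (adjusted p = 0.113), and it was the 1 member below an FPKM of 1 in any library. *Nsdhl*, *Sc5d* and *Dhcr7*, a dehydrogenase, a desaturase and the last reductase, did not overlap between the groups either, with log2 fold changes of -0.69, -0.46 and -0.68 (adjusted p = 0.216, 0.358 and 0.288). *Ebp*, the sterol isomerase, was abundant in every library, with 46.4 and 39.9 against 43.1 and 37.1, and its values overlapped (log2 fold change -0.20, adjusted p = 0.660).

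The calls of *Idi1*, *Fdps*, *Sqle* and *Msmo1* held with each library left out in turn. That of *Mvd* was lost without control replicate 2 (adjusted p = 0.0635), and that of *Cyp51* without control replicate 1 (0.115) or control replicate 2 (0.0743). The log2 fold changes of these 6 genes stayed at or below -1.28 in every such fit.

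Promoter sequence was available from RefSeq for 14 of the 17 enzymes, and it was searched because SREBPs bind sterol regulatory elements next to the CCAAT box of the factor NF-Y. A window was the 250 bases before an annotated start site, and both strands were searched for exact matches to TCACNCCAC, a strict form of the sterol regulatory element, and to CCAAT. The latter box was found for 13 of 14 enzymes (92.9%), against 37.5% of the 27025 genes with a window. No filter on FPKM was applied to those 27025 genes, unlike the members. The box was found for all 4 called enzymes that have a window and also for uncalled ones, among them *Ebp*, *Lss* and *Mvk*. It was found for 2 of 6 fatty acid enzymes (33.3%), for 0 of 4 sterol sensing and efflux genes and for 4 of 5 regulators. TCACNCCAC was found for 1 of 14 enzymes, *Hmgcs1* (7.14%), against 1.22% of all genes. A match to these letters is a description of the sequence, and SREBPs also bind sites that differ from them. The 170 bases before the start site are shown for the 4 called enzymes that have a window, whose log2 fold changes ran from -2.18 for *Idi1* to -1.46 for *Cyp51*, and for *Hmgcs1*, which was not called. Sequences are 5′ to 3′ on the strand of the gene in GRCm38.p6, and capitals mark CCAAT, its reverse complement ATTGG, and the sterol regulatory element.
Idi1, chr13:8885436-8885605, plus strand: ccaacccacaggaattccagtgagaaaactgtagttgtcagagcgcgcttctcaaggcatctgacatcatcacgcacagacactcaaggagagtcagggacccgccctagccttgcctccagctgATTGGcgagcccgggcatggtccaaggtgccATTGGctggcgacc
Mvd, chr8:122443423-122443592, minus strand: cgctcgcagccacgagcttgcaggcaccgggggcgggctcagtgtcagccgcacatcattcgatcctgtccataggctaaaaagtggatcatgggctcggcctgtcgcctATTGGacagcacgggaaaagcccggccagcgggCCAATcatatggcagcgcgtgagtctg
Cyp51, chr5:4104698-4104867, minus strand: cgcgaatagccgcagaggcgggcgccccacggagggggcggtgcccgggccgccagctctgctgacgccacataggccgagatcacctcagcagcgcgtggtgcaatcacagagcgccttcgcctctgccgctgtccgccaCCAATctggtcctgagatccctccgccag
Msmo1, chr8:64733579-64733748, minus strand: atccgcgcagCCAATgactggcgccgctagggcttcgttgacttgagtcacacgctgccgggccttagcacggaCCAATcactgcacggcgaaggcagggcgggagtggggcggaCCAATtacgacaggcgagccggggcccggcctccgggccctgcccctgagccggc
Hmgcs1, chr13:119690181-119690350, plus strand: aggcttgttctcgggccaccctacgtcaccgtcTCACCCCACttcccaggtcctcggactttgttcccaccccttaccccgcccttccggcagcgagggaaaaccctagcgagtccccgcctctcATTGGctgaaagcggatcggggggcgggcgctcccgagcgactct

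The shown windows held 1 CCAAT box for *Cyp51* and *Hmgcs1*, 2 for *Idi1* and *Mvd* and 3 for *Msmo1*. The box nearest to the start site began 14 bases before it for *Idi1*, 27 for *Mvd*, 29 for *Cyp51*, 45 for *Hmgcs1* and 55 for *Msmo1*.

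None of the 5 regulators was called. The median of their log2 fold changes was -0.05, and 4 of 5 overlapped between the groups, as 5305 of all 11056 genes tested did. *Srebf2*, which encodes SREBP-2 and carries the microRNA gene *Mir33* within its span, was the exception. Its FPKM was 37.6 and 38.5 in control MSCs and 31.8 and 23.6 in L-MSCs. The log2 fold change was -0.56 (standard error 0.24, adjusted p = 0.212), so that both L-MSC libraries were lower without passing the test. *Srebf1*, which encodes SREBP-1 and overlaps the gene *Rai1*, had 23.4 and 27.9 against 31.1 and 25.5, and its values overlapped (log2 fold change 0.04, adjusted p = 0.949). *Scap* had 8.01 and 16.2 against 12.8 and 10.5, and its difference on the log2 scale of -0.08 (standard error 0.33, adjusted p = 0.923) turned positive without scaling. The INSIG genes varied more between replicates than between groups. *Insig1*, itself a target of SREBP, had 33.1 and 18.6 in control MSCs and 36.5 and 23.3 in L-MSCs, higher in replicate 1 of both groups (log2 fold change 0.13, standard error 0.32, adjusted p = 0.865). *Insig2*, the most abundant regulator, had 59.8 and 41.2 against 58.4 and 45.6 (log2 fold change -0.05, standard error 0.26, adjusted p = 0.941), with a positive sign under the other scalings. *Stard4*, whose product carries cholesterol between membranes, had the lowest mean FPKM of the members in control MSCs, with 1.96 and 1.38 against 1.77 and 1.37 (log2 fold change -0.11, standard error 0.35, adjusted p = 0.890).

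None of the 9 genes of fatty acid synthesis was called in either direction. Their median log2 fold change was -0.38, with 6 negative and 3 positive values. The scaled groups did not overlap for 4 genes that were lower in L-MSCs and 1 that was higher, against 27.2% and 24.8% of all genes. Over all 37 members the groups stood apart for 23, of which 18 were lower and 5 higher, where 52.0% of all genes did, and 10 of 37 had a positive log2 fold change, where 49.3% of all genes did. *Elovl6*, the elongase that lengthens palmitate, had the largest difference, with an FPKM of 5.83 and 4.90 in control MSCs and 2.19 and 1.72 in L-MSCs. The replicates were close and the groups apart, and the log2 fold change of -1.18 (standard error 0.32) just missed the threshold (adjusted p = 0.0630 from limma). *Elovl5*, an elongase of polyunsaturated fatty acids, had 39.98 and 43.98 against 23.8 and 35.0 (log2 fold change -0.62, standard error 0.24, adjusted p = 0.176). The genes that make palmitate, *Acly*, *Acaca* and *Fasn*, encode ATP citrate lyase, acetyl-CoA carboxylase and fatty acid synthase. *Acly* had 31.7 and 42.9 against 33.0 and 22.3, *Acaca* had 2.74 and 2.88 against 1.39 and 2.30, and *Fasn* had 6.34 and 8.82 against 6.88 and 5.55. Their log2 fold changes were -0.53, -0.51 and -0.33 (adjusted p = 0.294, 0.429 and 0.586), and the values of *Fasn* overlapped, as did those of *Acly* before scaling. *Acaca* also overlaps the genes *Tada2a* and *Gm11437*.

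The 4 desaturase genes had log2 fold changes from -0.38 to 0.54. *Scd1*, which makes oleate from stearate, was higher in both L-MSC libraries, with an FPKM of 26.3 and 19.1 in control MSCs and 34.9 and 36.0 in L-MSCs. Its log2 fold change of 0.54 (standard error 0.24) missed both thresholds (adjusted p = 0.237). Its paralog *Scd2*, which may share reads with it, had 19.2 and 23.5 against 21.2 and 14.0 (log2 fold change -0.38, adjusted p = 0.468). *Fads1*, the delta-5 desaturase and the most abundant gene of this group in a single library, had 24.0 and 40.5 against 56.1 and 36.6 (log2 fold change 0.43, standard error 0.30, adjusted p = 0.464). *Fads2*, the delta-6 desaturase, had 13.7 and 15.6 against 17.1 and 15.7 (log2 fold change 0.05, adjusted p = 0.926). The values of *Scd2* and *Fads1* overlapped, and those of *Fads2* overlapped after scaling.

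**Figure D2:**
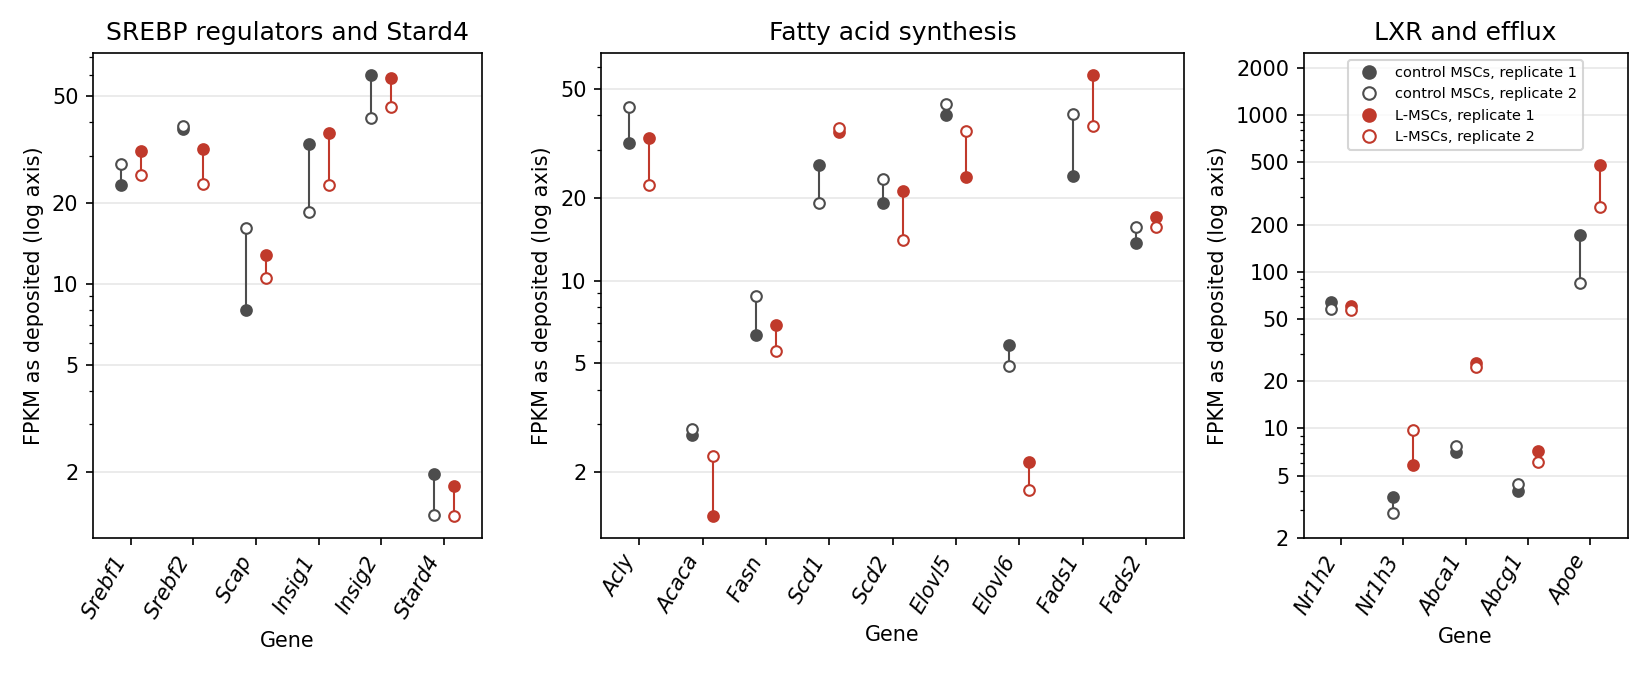
FPKM as deposited (log axes) of the SREBP regulators with *Stard4* (left), the fatty acid synthesis genes (middle) and the genes of LXR and efflux (right), in control MSCs (grey) and L-MSCs (red), with replicate 1 filled, replicate 2 open and a line joining them. *Abca1* goes from 7.11 and 7.69 to 26.2 and 24.5 with close replicates, and *Apoe*, the highest gene, has replicates that lie apart within both groups.

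Of the 5 genes of sterol sensing and efflux, 1 was called higher in L-MSCs and 0 lower, with a median log2 fold change of 0.93. The cholesterol exporter gene *Abca1*, on chromosome 4 from 53030789 to 53159988, was the 1 member called higher, which is 2.70% of the 37 and near the 2.43% of all genes. Its FPKM was 7.11 and 7.69 in control MSCs and 26.2 and 24.5 in L-MSCs, so that the mean was 3.43 times as high in L-MSCs. The log2 fold change was 1.56 (standard error 0.25, adjusted p = 0.00811 from limma), and the call held with each library left out in turn. *Apoe*, the apolipoprotein that accepts exported cholesterol, was the most abundant member, with 173 and 85.2 in control MSCs and 484 and 258 in L-MSCs. Replicate 1 was 2.03 and 1.88 times replicate 2 within the groups, and the groups still did not overlap. Its log2 fold change was 1.43 (standard error 0.37) at an adjusted p of 0.0543 from limma, just outside the threshold, and the value depended on single libraries. It was 1.94 (adjusted p = 0.00429) without control replicate 1 and 1.91 (0.00128) without L-MSC replicate 2, but 0.90 (0.235) without control replicate 2 and 0.95 (0.167) without L-MSC replicate 1.

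*Nr1h3*, encoding LXRα, had an FPKM of 3.62 and 2.88 in control MSCs and 5.83 and 9.73 in L-MSCs. The log2 fold change was 0.93 (standard error 0.33, adjusted p = 0.142). Both L-MSC libraries were higher, but replicate 2 carried most of the difference, and the span of the gene overlaps that of *Acp2*. *Nr1h2*, encoding LXRβ, was far more abundant and nearly level, with 64.6 and 58.1 against 60.6 and 56.9 (log2 fold change -0.16, adjusted p = 0.716), and its sign turned under quantile normalization. The exporter gene *Abcg1* had 3.98 and 4.40 against 7.15 and 6.06 (log2 fold change 0.46, standard error 0.30, adjusted p = 0.412), higher in both L-MSC libraries without passing the test. Macrophages are also rich in *Apoe*, *Abca1* and *Nr1h3*. Of 12 macrophage markers, 8 were below an FPKM of 1 in all 4 libraries, among them *Ptprc*, *Adgre1*, *Csf1r* and *C1qa*, and the summed FPKM of the 12 was 32.2 and 33.6 in control MSCs and 33.1 and 21.7 in L-MSCs. Of the others, *Cd68* was higher in both L-MSC libraries (2.53 and 2.79 against 12.6 and 4.35), and *Lyz2* (11.8 and 18.1 against 7.87 and 5.72) and *Cd14* (16.7 and 10.8 against 10.9 and 10.6) were lower after scaling. None of these 3 was called (adjusted p = 0.164, 0.0655 and 0.471 from limma). The remaining marker, *C1qb*, had 0.18 and 0.70 in control MSCs and 1.63 and 0.05 in L-MSCs, and did not pass the filter on FPKM. The part of these markers in the result was not tested. In these bulk samples, a change in the share of a cell type and a change of RNA per cell cannot be told apart.

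**Figure D3:**
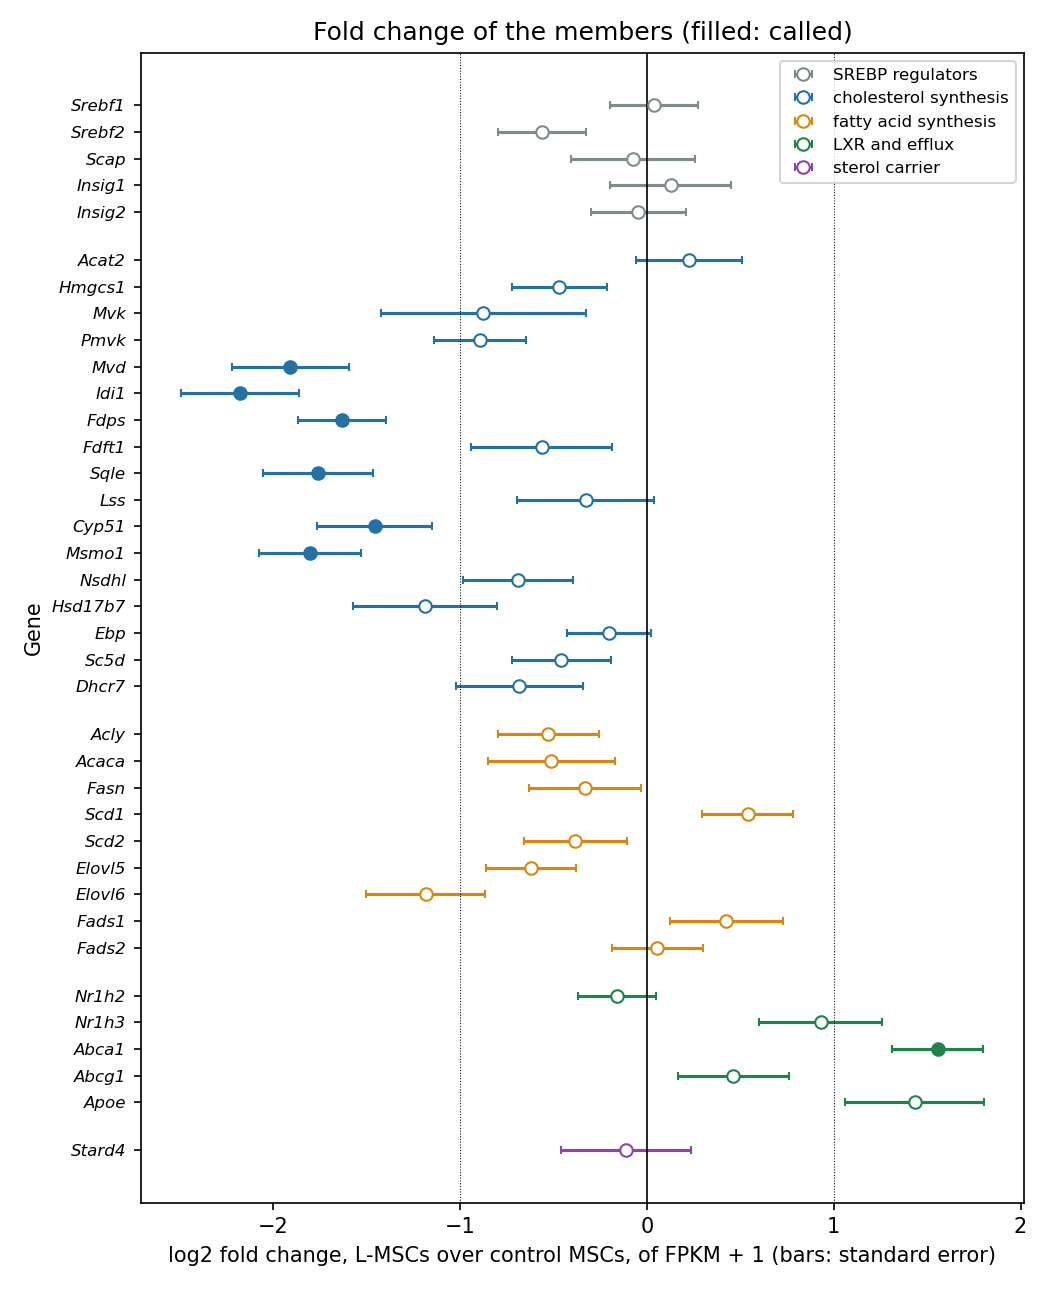
Log2 fold change of each member in L-MSCs over control MSCs on the scale of log2(FPKM + 1), with its standard error from limma, by group. Filled points are the 7 called genes, 6 of cholesterol synthesis to the left of -1 and *Abca1* to the right of 1, and open points did not pass both thresholds.

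Set side by side, the median log2 fold change was -0.88 for cholesterol synthesis, -0.38 for fatty acid synthesis and 0.93 for sterol sensing and efflux, where -0.01 was the median of all genes. The cholesterol median was 0.49 below the fatty acid median on the log2 scale, a difference of -0.25 without control replicate 1 and -0.80 without L-MSC replicate 2. Within each library, the mean log2(FPKM + 1) of the cholesterol enzymes minus that of the fatty acid enzymes was 0.04 and -0.37 in control MSCs and -1.004 and -0.748 in L-MSCs. The mean of the cholesterol enzymes minus that of the sterol sensing and efflux genes was -0.21 and -0.21 in control MSCs and -2.17 and -1.92 in L-MSCs. In both comparisons the L-MSC libraries were below the control libraries, and no test was run on these means, since the genes of a branch share their libraries.

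**Figure D4:**
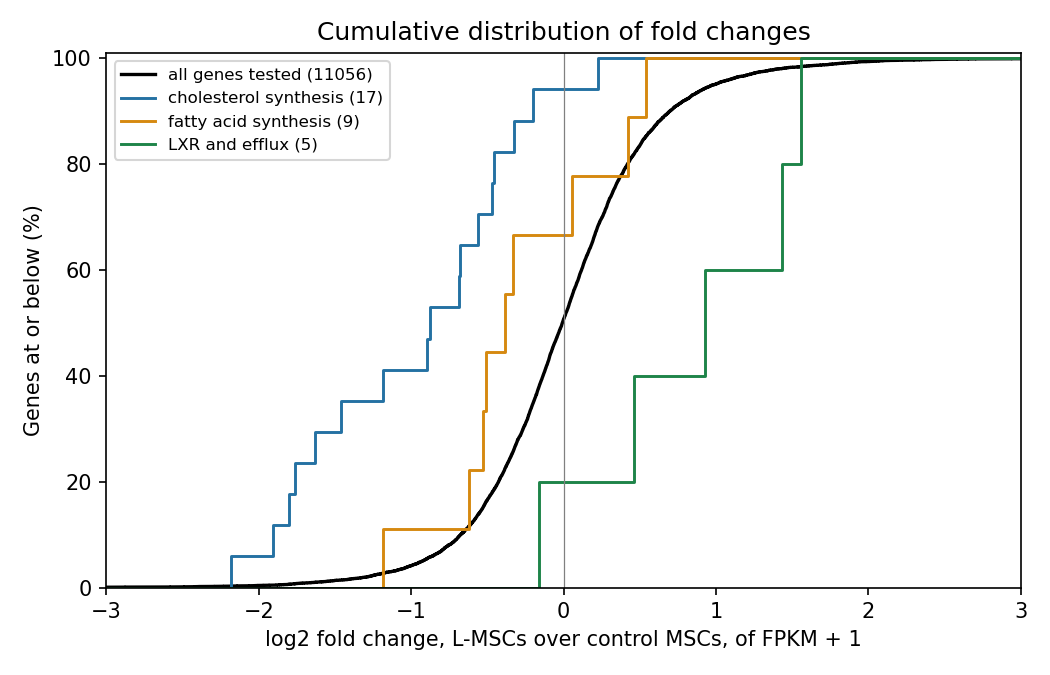
Cumulative share of genes (%) by log2 fold change of L-MSCs over control MSCs, for all 11056 genes tested (black), the 17 cholesterol enzymes (blue), the 9 fatty acid enzymes (orange) and the 5 genes of sterol sensing and efflux (green). The blue curve lies left of the black one with a median of -0.88, and the green one lies right of it with a median of 0.93.

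Other genes of the same pathways were called at shares near the 5.08% of all genes. Of 15 tested genes for the processing and turnover of SREBPs, their partners and lipoprotein receptors, 1 was called higher (6.67%) and 0 lower. The median log2 fold change of the 15 was 0.04. The gene called was *Mylip*, an LXR target whose product marks lipoprotein receptors for degradation, with an FPKM of 12.8 and 9.60 in control MSCs and 29.8 and 29.1 in L-MSCs (log2 fold change 1.24, standard error 0.25, adjusted p = 0.0217 from limma). The abundant members *Vcp*, an ATPase that extracts proteins from membranes, and *Mbtps1*, the protease that makes the first cut in SREBPs, were not called (log2 fold changes of -0.42 and 0.06, adjusted p = 0.274 and 0.897). Of 22 genes of sterol uptake, trafficking and oxysterols, 1 was called higher (4.55%) and 0 lower, with a median of -0.02. This was *Stard5*, a lipid transfer protein gene related to *Stard4*, with 6.20 and 4.99 against 21.8 and 23.0 (log2 fold change 1.74, standard error 0.26, adjusted p = 0.00668 from limma). The most abundant genes of that list, the lipoprotein receptor gene *Lrp1* and the lysosomal cholesterol carrier gene *Npc2*, had log2 fold changes of 0.57 and -0.11 (adjusted p = 0.171 and 0.807).

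Of 21 further genes of fatty acid supply, elongation and activation, 0 were called higher and 1 lower (4.76%), with a median of -0.25. *Elovl1*, an elongase of saturated very long chain fatty acids, fell from 116 and 125 in control MSCs to 45.8 and 56.6 in L-MSCs (log2 fold change -1.33, standard error 0.21, adjusted p = 0.00783 from limma), and *Tecr*, the reductase of the same elongation cycle, had a log2 fold change of -0.52 (adjusted p = 0.170). Adipocytes are rich in enzymes of fatty acid synthesis. Of 4 adipocyte markers tested, 2 were called higher (*Fabp4* and *Plin4*), where 2.43% of all genes were. *Adipoq* (8.48 and 1.84 against 7.26 and 4.08) overlapped, and *Lipe* (3.84 and 3.52 against 6.78 and 5.10) was higher. Neither was called (adjusted p = 0.842 and 0.421 from limma). The summed FPKM of the 6 listed in the table was 15.7 and 7.33 in control MSCs and 37.1 and 20.3 in L-MSCs. Of these sums, *Fabp4* made up 3.10 and 0.97 against 18.98 and 8.39. *Plin1* and *Cidec*, which coat lipid droplets, were below 1 in all libraries. The part of these cells in the values of the fatty acid genes was not tested. Erythroid markers fell with the cholesterol enzymes, with 4 of 4 tested (*Hba-a1*, *Hba-a2*, *Hbb-bs* and *Hbb-bt*) called lower and a summed FPKM of 239 and 150 against 10.1 and 6.26, and their part in that result was not tested either.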

How the data were processed

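RNA was amplified with a SMART-Seq v4 kit and sequenced on a BGISEQ instrument. The authors filtered reads with SOAPnuke, aligned them with HISAT2 2.0.4 and Bowtie2 2.2.5 to GRCm38.p6 with RefSeq genes, and estimated abundance with RSEM 1.2.8, as named in the paper and the submitters' processing notes. The deposited table gives FPKM per library and the log2 ratio of the authors' own comparison (DESeq2), which was not used. FPKM carry no counts, so that count models were not run here.

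FPKM were divided by median-of-ratios factors over genes above 0 in all 4 libraries, genes that reached an FPKM of 1 in 2 or more libraries were kept, and log2(FPKM + 1) was fitted by group with limma 3.58.1 (R 4.3.3) with a mean-variance trend and 2 residual degrees of freedom. Fold changes are on that scale, which understates the change of genes with low values. Scripts were tested on simulated data. Nothing says that pools shared no litter or day. The p-values set a difference against the spread between these pools, which limma pools over genes. From the other pathway lists, the called genes and the 2 most abundant tested genes were named, and cell type markers were named after their values were seen. Members and lists were chosen with earlier results of these data known. Alternatives were other scalings, pseudocounts, filters and variance models, a replicate block, and leaving out each library. Symbols were matched to RefSeq for 17402 of 17457 genes. A list of neighboring genes of the sterol and isoprenoid pathway is not reported here.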

Additional observations from a re-analysis of the deposited data

How the results depend on the processing

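With genes of low FPKM kept, limma called 0 genes higher or lower and 0 members in either direction, the 17 cholesterol enzymes included. Without scaling, 194 genes were called lower and 2 members higher, with *Scap* at 0.0175 and *Insig2* at 0.0542 (log2). As TPM, 182 genes were called lower and *Insig2* was 0.0144. With quantile normalization, 2 members were called higher, *Insig2* was 0.13 and *Nr1h2* 0.0306, and a minimum FPKM of 5 also gave 2 members higher. Without the variance trend, 148 genes were called higher and 128 lower. *Apoe* was the second member called higher without scaling, with quantile normalization and with that minimum (adjusted p = 0.0291 to 0.0476), and it was not called in the other settings without a block (0.0607 to 0.458). The median of the regulators ran from -0.05 to 0.12 over these settings, so that it has no settled sign. The cause of these changes was not tested.

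The labels number the replicates alike in both groups. The differences between replicates correlated at 0.101 over 11056 genes, but with only 2 numbers this was not taken as pairing. A replicate block gave 509 genes higher and 438 lower, 8 members lower (*Hsd17b7* and *Elovl6* added, adjusted p = 0.0169 and 0.0125) and 2 higher.

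With each library left out, where limma assumes that a lone sample varies like the other group, 146 to 464 genes were called higher and 152 to 531 lower, 1 to 2 members higher, and 4 to 8 members, all cholesterol enzymes, lower. Without L-MSC replicate 2, *Mvk* and *Hsd17b7* (adjusted p = 0.048) were added. Medians ran from -0.30 to 0.15 for regulators, -0.98 to -0.79 for cholesterol synthesis, -0.54 to -0.18 for fatty acid synthesis and 0.62 to 1.06 for LXR and efflux, and the cholesterol minus fatty acid median from -0.80 to -0.25. Signs turned for 10 uncalled genes: *Srebf1* (-0.13 to 0.20), *Scap* (-0.54 to 0.36), *Insig1* (-0.30 to 0.54), *Insig2* (-0.34 to 0.22), *Acat2* (-0.12 to 0.55), *Mvk* (-1.85 to 0.093), *Fdft1* (-1.19 to 0.0532), *Lss* (-0.78 to 0.12), *Fads2* (-0.0284 to 0.13) and *Stard4* (-0.29 to 0.0496). Depth is unknown, and 2 pools per group limit the precision of every value.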
